A study of Mus musculus with 24 samples.

Results

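The respiratory chain genes followed here are 45 genes of mouse frontal cortex, 13 encoded on the mitochondrial chromosome and 32 encoded in the nucleus. They were chosen by name, as subunits of the respiratory chain and of ATP synthase. All 45 passed the filter on low counts, among 18239 genes tested of 52352 genes with summed counts. Of the mitochondrial genes, 7 belong to complex I, 1 to complex III, 3 to complex IV and 2 to ATP synthase. Of the nuclear genes, 16 belong to complex I, 4 to complex II, 4 to complex III and 8 to complex IV.

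The study measured polyadenylated RNA by RNA-seq in the frontal cortex of 24 littermate mice, perfused with saline. Grn encodes progranulin, a secreted and lysosomal protein, and mice of the Grn+/- groups carry 1 working copy of it. The hTDP transgene carries human TARDBP, which encodes the RNA-binding protein TDP-43. The 4 groups were Grn+/+ hTDP- (neither change, 9.44 to 10.79 months old), Grn+/+ hTDP+ (transgene alone, 9.44 to 10.07 months), Grn+/- hTDP- (loss of 1 Grn copy alone, 8.19 to 10.79 months) and Grn+/- hTDP+ (both, 9.44 to 10.07 months). Each group held 6 mice, 3 female and 3 male, and 1 library per mouse. The promoter that drives the transgene is not given in the sources used here. The design asks what each change does to gene expression, and whether the transgene acts differently when 1 Grn copy is missing.

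The chain passes electrons from complexes I and II through complex III and cytochrome c to complex IV, which hands them to oxygen. Complexes I, III and IV pump protons as they work, and ATP synthase, also called complex V, uses the proton gradient to make ATP. Complex II is built from nuclear genes alone, while the other complexes need subunits of both genomes. The mitochondrial genes are read as long RNAs from both strands of a small circular chromosome and are mostly cut apart at tRNAs. The nuclear genes are transcribed singly, and their proteins are imported. Neurons draw most of their ATP from this chain.

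The labels held for the targeted genes. Grn stood at 51.0 ± 7.34 CPM in Grn+/+ hTDP-, 47.9 ± 8.10 in Grn+/+ hTDP+, 25.9 ± 6.23 in Grn+/- hTDP- and 26.7 ± 5.29 in Grn+/- hTDP+ (counts scaled to the library size, mean ± SD, n = 6 each). Human TARDBP had at most 2 reads in any hTDP- library and 4328 to 8162 reads in the hTDP+ libraries. Libraries held 61445842 to 100859149 reads, of which the 13 mitochondrial members took 3.08% to 4.07% and the 32 nuclear members 0.373% to 0.421%. Replicate 2 of Grn+/+ hTDP+ stood apart, with 40188 transcripts detected, while the other libraries had 65994 to 69846. The markers of excitatory neurons, the main cell type of the labelled tissue, summed to 4482 to 5966 TPM, which are scaled to length as well. In bulk tissue, fewer cells of a type and less RNA per cell cannot be told apart, which holds for every level below.

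Before the levels can be read, 5 of the 13 mitochondrial genes need a check of sequence, because chromosome 1 carries near-identical copies of them as annotated pseudogenes. The copies lie in 1 block on the minus strand of GRCm38 chromosome 1, from Gm28438 at chr1:24612775-24613119 through Gm28437, Gm10925 and Gm28661 to Gm29216 at chr1:24615706-24616197. The next lines set the end of 3 mitochondrial genes against the end of their copies, with capitals for the bases of the mitochondrial gene that lie past the end of the annotated copy.
mt-Atp6, chrM:8568-8607 (plus strand): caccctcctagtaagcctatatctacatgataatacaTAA
Gm10925, chr1:24613974-24614010 (minus strand): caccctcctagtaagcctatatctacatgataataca
mt-Co2, chrM:7657-7696 (plus strand): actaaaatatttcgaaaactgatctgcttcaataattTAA
Gm28661, chr1:24614885-24614921 (minus strand): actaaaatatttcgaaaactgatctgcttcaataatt
mt-Co3, chrM:9351-9390 (plus strand): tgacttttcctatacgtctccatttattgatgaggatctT
Gm28437, chr1:24613189-24613227 (minus strand): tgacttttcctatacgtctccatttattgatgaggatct

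Over their whole annotated length, Gm10925 (678 bases), Gm28661 (681 bases) and Gm28437 (783 bases) had 0 substitutions against mt-Atp6, mt-Co2 and mt-Co3. The mitochondrial genes differ from them only by 3, 3 and 1 bases past the copy's end. A read that lies inside such a pair cannot be told apart by its letters. The other 2 copies each have 1 substitution, T3C in Gm28438 against mt-Nd3 over 345 aligned bases and A1066T in Gm29216 against mt-Co1 over 483 aligned bases. Positions are counted from 1 at the mitochondrial gene's 5′ end, the mitochondrial base is written first, and the substituted base stands in capitals in the lines that follow.
mt-Nd3, chrM:9459-9491 (plus strand): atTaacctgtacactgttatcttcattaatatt
Gm28438, chr1:24613087-24613119 (minus strand): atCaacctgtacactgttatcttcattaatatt
mt-Co1, chrM:6390-6423 (plus strand): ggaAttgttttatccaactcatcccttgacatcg
Gm29216, chr1:24616155-24616188 (minus strand): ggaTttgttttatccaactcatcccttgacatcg

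The counts were split between each gene and its copy, unequally from pair to pair. The copy's share of the pair's reads had a median over the 24 libraries of 81.1% for mt-Co3 (75.9% to 85.8%), 76.9% for mt-Co2 (71.1% to 84.7%), 59.96% for mt-Atp6 (55.2% to 68.2%) and 47.6% for mt-Nd3 (35.9% to 58.6%). For mt-Co1, whose copy covers only bases 1063 to 1545 of the gene, it was 1.29% (0.731% to 2.32%). The deposited counts of mt-Co2 and mt-Co3 thus hold the smaller part of the reads that match the pair. For these 5 genes a second value is given below, with the reads of the copy added to those of the gene, a choice made after seeing the data. On the TPM scale, the copy's TPM was added to the gene's TPM instead. Reads that came from the chromosome 1 block itself cannot be told apart from mitochondrial reads in these sums.

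**Figure D1:**
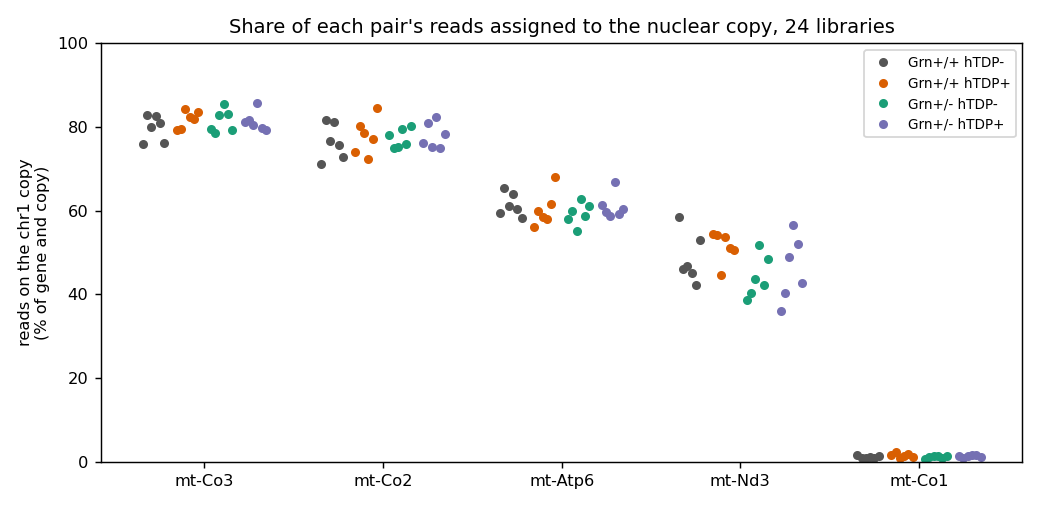
Share of the reads of each gene and copy pair that was counted on the chromosome 1 copy, in percent, for the 5 mitochondrial genes with a copy, by group, with 1 point per library. The shares of mt-Co3 and mt-Co2 lie above 70%, that of mt-Nd3 spreads from 35.9% to 58.6%, and that of mt-Co1 stays below 3%.

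The mitochondrial genes also overlap one another. The reading frames of mt-Atp8 and mt-Atp6 share 43 bases, chrM:7927-7969, shown in capitals because no read inside them belongs to 1 gene alone.
mt-Atp8 and mt-Atp6, chrM:7919-7977 (plus strand): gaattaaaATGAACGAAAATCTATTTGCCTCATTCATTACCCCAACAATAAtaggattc
mt-Nd4l and mt-Nd4 share 7 bases on 1 strand (chrM:10167-10173). mt-Nd5 and mt-Nd6 share 14 bases on opposite strands (chrM:13552-13565), and mt-Nd6 is the only member of the 13 on the minus strand. Whether the counting used strand is not given in the sources used here, so reads from the strand opposite mt-Nd6 cannot be told apart from its own. The shortest genes leave little room for a sequenced fragment. The effective length, which is the number of start positions a fragment can have, had a median of 21.2 bases for mt-Atp8 (204 bases long), 41.1 for mt-Nd4l (297 bases) and 63.0 for mt-Nd3 (348 bases), against 1237 for mt-Co1 (1545 bases).

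Per length, on the TPM scale, 12 of the 13 mitochondrial members had a mean above that of every nuclear member. mt-Co1, the catalytic core of complex IV, was the highest at 18647 ± 1227 TPM (mean ± SD, n = 24 libraries). It was followed by mt-Nd1 at 9920 ± 611 TPM, mt-Nd3 at 9620 ± 1557 TPM and mt-Cytb at 9121 ± 632 TPM. mt-Nd1 and mt-Nd3 are membrane subunits of complex I, and mt-Cytb is cytochrome b of complex III. mt-Nd3 lay within its own SD of both neighbours, while mt-Nd1 and mt-Cytb differed by more than either SD. mt-Atp6, the proton channel subunit of ATP synthase, came next at 8671 ± 650 TPM. Among the other complex I subunits, mt-Nd4 stood at 7477 ± 497 TPM, mt-Nd2 at 5720 ± 393 TPM and mt-Nd4l at 5195 ± 744 TPM, and mt-Nd5 (3146 ± 192 TPM) and mt-Nd6 (2869 ± 228 TPM) lay lowest. mt-Co2, which takes electrons from cytochrome c, stood at 5003 ± 658 TPM and mt-Co3 at 3751 ± 458 TPM. mt-Atp8 was the lowest of the 13 at 615 ± 158 TPM and the only one below some nuclear members, ranking 19 of 45. mt-Atp8 and mt-Nd4l overlap mt-Atp6 and mt-Nd4, and their effective lengths were only 21.2 and 41.1 bases. Their TPM are therefore not read as levels apart from those of the genes they overlap.

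Adding the copies changed that order. With the copy's TPM added to that of the gene, mt-Co2 stood at 22429 ± 1475 TPM, mt-Atp6 at 22139 ± 1330 TPM and mt-Co3 at 19970 ± 1310 TPM. mt-Nd3 stood at 18564 ± 1630 TPM and mt-Co1 at 20235 ± 1386 TPM. Gm29216 is 492 bases long against 1545 for mt-Co1. Its median of 1.29% of the pair's reads thus came with 1588 TPM, more per length than the reads alone would add to mt-Co1. The order of mt-Co1 among these genes is therefore not read. These 4 genes with near full-length copies thus moved from between 3751 and 9620 TPM to between 18564 and 22429 TPM, close to mt-Co1. No mitochondrial tRNA entered the levels, since all 22 tRNA genes were at 0 reads in all libraries.

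The nuclear members ran from 88.5 to 1982 TPM, and the complexes overlapped in range. The 8 subunits of complex IV had a median of 958 TPM. They were led by Cox8a at 1982 ± 90.1 TPM, Cox6a1 at 1944 ± 84.1 TPM and Cox4i1 at 1631 ± 63.9 TPM, followed by Cox6c (1254 ± 66.7 TPM), Cox5b (662 ± 56.5 TPM), Ndufa4 (640 ± 33.4 TPM), Cox7a2 (484 ± 22.6 TPM) and Cox5a (390 ± 23.4 TPM). Ndufa4 was named as a complex I gene and is counted here with complex IV, where its protein is found. The 16 subunits of complex I had a median of 230 TPM, from Ndufa1 at 480 ± 22.1 TPM, Ndufb8 at 431 ± 17.7 TPM and Ndufa5 at 401 ± 31.9 TPM down to Ndufs1 at 103 ± 6.89 TPM and Ndufs4 at 94.9 ± 8.16 TPM. Ndufs1 carries iron-sulfur clusters of the electron path, and Ndufs4 is an accessory subunit needed for a stable complex. The 4 nuclear subunits of complex III had a median of 208 TPM, from Uqcrc1, a core protein, at 342 ± 16.9 TPM to Uqcrfs1, the Rieske iron-sulfur protein, at 176 ± 7.78 TPM. In complex II, Sdha, the flavoprotein that oxidises succinate, stood at 375 ± 28.5 TPM, Sdhb, the iron-sulfur subunit, at 199 ± 8.42 TPM, and the membrane anchors Sdhd and Sdhc at 119 ± 3.45 and 88.5 ± 5.11 TPM.

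**Figure D2:**
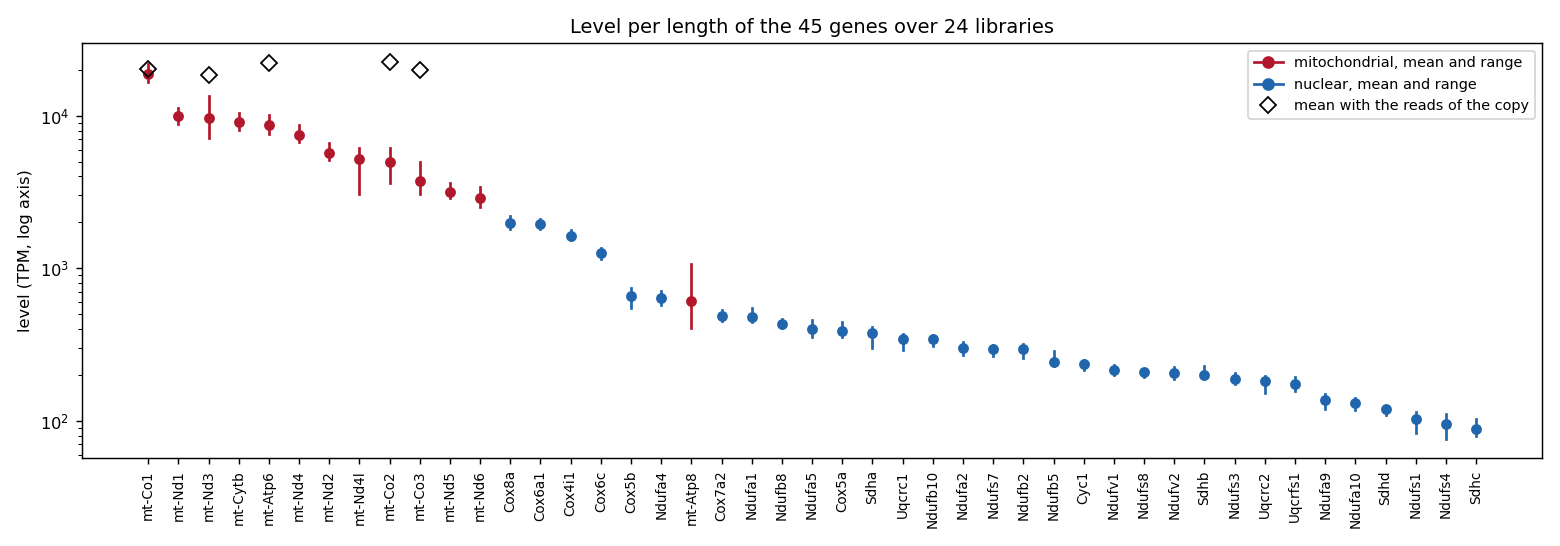
Level of each of the 45 members in TPM on a log axis, with the mean and the range over 24 libraries, and open diamonds for the 5 mitochondrial genes with the copy's TPM added. All mitochondrial members except mt-Atp8 lie above every nuclear member, and the open diamonds lie between 18564 and 22429 TPM.

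Several complex IV subunits have a second form made in other tissues, and the form among the members was the higher one in each pair. Cox8a stood at 1982 TPM against 0.781 TPM for the muscle form Cox8b, and Cox6a1 at 1944 TPM against 22.0 TPM for the muscle form Cox6a2. Cox7a2 stood at 484 TPM against 8.62 TPM for the muscle form Cox7a1, and Cox4i1 at 1631 TPM against 4.32 TPM for Cox4i2, a form best known from lung. These are levels per length averaged over 24 libraries.

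mt-Cytb, mt-Nd4, mt-Nd1, mt-Nd5 and mt-Nd2, which have no copy, kept close to mt-Co1 from library to library. On the log2 CPM scale, the SD over the 24 libraries of the ratio to mt-Co1 was 0.03 for mt-Cytb and mt-Nd4, 0.05 for mt-Nd1, and 0.06 for mt-Nd5 and mt-Nd2. For mt-Nd6, which has no copy either, it was 0.10, close to the 0.11 of mt-Atp6 on the deposited counts. The ratio to mt-Co1 was looser for mt-Co2 (0.22), mt-Co3 (0.20), mt-Nd3 (0.16) and mt-Atp6 (0.11) on the deposited counts. With the copies' reads added, these SDs came to 0.05, 0.06, 0.11 and 0.06. It was widest for the shortest genes, mt-Nd4l (0.28) and mt-Atp8 (0.36), which have no copy and did not keep close to mt-Co1. All 24 points share the library's total and the scaling, and these SDs are a description.

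Among the nuclear members the spread was small. The SD of log2 CPM over the 24 libraries ran from 0.04 for Ndufv1, which binds NADH, to 0.11 for Ndufa5, with a median of 0.07. For comparison, mt-Nd1 had 0.11 on the same scale.

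The first comparison asks what the transgene did on average over both Grn genotypes. The mitochondrial members lay slightly higher in the hTDP+ libraries and the nuclear members hardly differed. 12 of 13 mitochondrial members had a log2 change above 0, with a median of 0.09, and 24 of 32 nuclear members, with a median of 0.02, against a median of 0.00 over all genes tested. No member passed an adjusted p of 0.05 in edgeR, whose smallest adjusted p among members was 0.466, and none passed in DESeq2, where it was 0.267. Over all genes, 0.11% were called by edgeR and 0.348% by DESeq2. At an unadjusted p under 0.05, edgeR gave 9 of the 45 members (20%), 6 mitochondrial and 3 nuclear, all higher, against 7.86% of all genes. Several mitochondrial members kept close to mt-Co1 from library to library. Counts of mitochondrial members, here and below, are thus not counts of independent observations.

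mt-Nd6 (chrM:13552-14070), whose reads cannot be told apart from those of the opposite strand, had the highest log2 change of the 13. Its lowest, median and highest CPM were 281, 312 and 338 in Grn+/+ hTDP-, 321, 359 and 382 in Grn+/+ hTDP+, 303, 334 and 377 in Grn+/- hTDP-, and 317, 355 and 409 in Grn+/- hTDP+. The groups overlapped, and 11 of the 12 hTDP+ libraries lay above the median of the hTDP- libraries. The log2 change was 0.14 (SE 0.05, 95% interval 0.05 to 0.23, edgeR adjusted p = 0.466).

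mt-Co1 (chrM:5328-6872) had 11279, 12059 and 12752 CPM as lowest, median and highest in Grn+/+ hTDP-, 12026, 12747 and 13599 in Grn+/+ hTDP+, 11277, 12753 and 13400.0 in Grn+/- hTDP-, and 12057, 13539 and 15362 in Grn+/- hTDP+. The group with both changes held the highest libraries, and its lowest library lay at the median of Grn+/+ hTDP-. The transgene's log2 change was 0.10 (SE 0.04, edgeR adjusted p = 0.573).

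mt-Cytb (chrM:14145-15288), the only complex III subunit of the mitochondrial genome, had 3696, 3963 and 4237 CPM in Grn+/+ hTDP-, 3850.4, 4198 and 4652.5 in Grn+/+ hTDP+, 3774, 4286 and 4393 in Grn+/- hTDP-, and 3970.5, 4560.3 and 5070.1 in Grn+/- hTDP+. Its medians followed the same order of groups as those of mt-Co1, and all groups overlapped. The transgene's log2 change was 0.10 (SE 0.04, edgeR adjusted p = 0.602).

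mt-Nd4 (chrM:10167-11544), a proton-pumping subunit of complex I, had 3912, 4208 and 4317 CPM in Grn+/+ hTDP-, 4055, 4366 and 4907 in Grn+/+ hTDP+, 3968, 4494 and 4582 in Grn+/- hTDP-, and 4155, 4717 and 5371 in Grn+/- hTDP+. The groups overlapped here too, and the log2 change for the transgene was 0.09 (SE 0.04, edgeR adjusted p = 0.623). mt-Co2 and mt-Co3 had log2 changes of 0.04 and 0.03 on the deposited counts and of 0.11 and 0.10 with the copies' reads added. With copies added, 13 of the 45 members had an unadjusted p under 0.05 in edgeR, 10 of them mitochondrial, and none was called. The share of all genes in the fit with copies is not given here, and on the deposited counts that share was 7.86%.

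Of the nuclear members, Ndufa5 and Sdhc had the highest log2 changes for the transgene, and Ndufs1 and Ndufa9 the lowest. Ndufa5 (chr6:24518666-24528013), an accessory subunit of the matrix arm of complex I, had 40.3, 43.7 and 49.7 CPM as lowest, median and highest in Grn+/+ hTDP-, 42.3, 45.5 and 54.0 in Grn+/+ hTDP+, 41.9, 43.3 and 49.3 in Grn+/- hTDP-, and 42.7, 48.6 and 49.4 in Grn+/- hTDP+. The ranges overlapped almost wholly. Its log2 change was 0.10 (95% interval 0.01 to 0.18, edgeR adjusted p = 0.614).

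Sdhc (chr1:171127165-171150603) had 53.7, 57.3 and 58.4 CPM in Grn+/+ hTDP-, 55.3, 58.2 and 75.3 in Grn+/+ hTDP+, 57.4, 59.5 and 64.0 in Grn+/- hTDP-, and 58.1, 59.8 and 62.4 in Grn+/- hTDP+. The medians of the 4 groups lay within 3 CPM of one another, and the library far above the rest was replicate 2 of Grn+/+ hTDP+, the one that stood apart. The log2 change was 0.06 (SE 0.04, edgeR adjusted p = 0.707), and 0.02 without that library.

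Ndufs1 (chr1:63143596-63176833) had 126, 136 and 143 CPM in Grn+/+ hTDP-, 126, 129 and 134 in Grn+/+ hTDP+, 124, 128 and 135 in Grn+/- hTDP-, and 111, 128 and 137 in Grn+/- hTDP+. The group with neither change held the highest library, and its median was above that of each other group. The log2 change for the transgene was -0.05 (SE 0.03, edgeR adjusted p = 0.727).

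Ndufa9 (chr6:126821721-126849136), a subunit near the ubiquinone site, had 81.3, 87.0 and 93.3 CPM in Grn+/+ hTDP-, 78.2, 87.1 and 89.6 in Grn+/+ hTDP+, 83.5, 85.2 and 91.8 in Grn+/- hTDP-, and 79.1, 85.5 and 90.1 in Grn+/- hTDP+. No group stood apart, and the log2 change was -0.03 (SE 0.03, edgeR adjusted p = 0.866). By complex, all 8 nuclear subunits of complex IV had a log2 change above 0 for the transgene, from 0.01 to 0.04, and 10 of 16 of complex I, from -0.05 to 0.10.

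Within Grn+/+ mice alone, the transgene's log2 change was above 0 for 11 of 13 mitochondrial members (median 0.09) and 22 of 32 nuclear members (median 0.02). No member was called by edgeR (smallest adjusted p 0.591) or by DESeq2 (0.399), where 0.0329% and 0.154% of all genes were called. An unadjusted p under 0.05 was reached by 4 members, mt-Nd1, mt-Nd6, mt-Atp6 and Ndufb2, against 7.83% of all genes. Within Grn+/- mice, 11 of 13 mitochondrial members (median 0.07) and 26 of 32 nuclear members (median 0.02) were above 0. Without replicate 6 of Grn+/- hTDP+ the mitochondrial median was 0.04. No member was called by edgeR or DESeq2, against 0.0219% and 0.0503% of all genes, and 1 member, Ndufs8, had an unadjusted p under 0.05, against 2.38% of all genes. The 2 comparisons share no library.

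The next comparison asks what the loss of 1 Grn copy did on average over both transgene states. All 13 mitochondrial members had a log2 change above 0, with a median of 0.09, against 21 of 32 nuclear members with a median of 0.01, and a median of 0.01 over all genes. No member was called by edgeR (smallest adjusted p 0.926) or by DESeq2 (0.302), while 0.0219% of all genes were called by edgeR and 0.0503% by DESeq2. At an unadjusted p under 0.05, edgeR gave 7 members, all mitochondrial and all higher, against 4.93% of all genes. This comparison uses the same 24 libraries as the average transgene effect.

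mt-Nd3 (chrM:9459-9806), a small membrane subunit of complex I, had the highest log2 change of the 45. It had 262, 302 and 330.2 CPM as lowest, median and highest in Grn+/+ hTDP-, 292, 316 and 358 in Grn+/+ hTDP+, 309, 357 and 406 in Grn+/- hTDP-, and 311, 354 and 465.8 in Grn+/- hTDP+. Of the 12 Grn+/- libraries, 11 lay above the median of the Grn+/+ libraries, and the ranges overlapped. The log2 change was 0.23 (SE 0.06, 95% interval 0.10 to 0.36, edgeR adjusted p = 0.926).

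That value of mt-Nd3 moved with the share of its reads counted on the copy. The copy's share was 48.6% ± 6.04 in Grn+/+ hTDP-, 51.4% ± 3.77 in Grn+/+ hTDP+, 44.1% ± 5.03 in Grn+/- hTDP- and 46.1% ± 7.75 in Grn+/- hTDP+ (mean ± SD, n = 6 each). With the reads of Gm28438 added, the log2 change for Grn was 0.09 (SE 0.04, edgeR adjusted p = 0.927), and that for the transgene went from 0.08 to 0.14.

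mt-Atp6 (chrM:7927-8607) had 1558, 1659 and 1774 CPM in Grn+/+ hTDP-, 1575, 1882 and 1896 in Grn+/+ hTDP+, 1674, 1864 and 2046 in Grn+/- hTDP-, and 1713, 1811 and 2156 in Grn+/- hTDP+. The group with neither change had the lowest median, and the other 3 medians lay close together. The log2 change for Grn was 0.10 (SE 0.04) on the deposited counts and 0.07 (SE 0.04) with the copy's reads added, neither called by edgeR (adjusted p = 0.926 and 0.927).

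Among the nuclear members, Ndufa2 and Cox8a had the highest and Ndufs1 and Uqcrc2 the lowest log2 changes for Grn. Ndufa2, an accessory subunit of complex I, had 39.0, 42.6 and 44.2 CPM in Grn+/+ hTDP-, 39.98, 42.4 and 50.7 in Grn+/+ hTDP+, 43.0, 45.6 and 46.3 in Grn+/- hTDP-, and 41.2, 46.0 and 49.8 in Grn+/- hTDP+. Both Grn+/- medians lay above both Grn+/+ medians, within overlapping ranges, and the log2 change was 0.08 (SE 0.04, edgeR adjusted p = 0.926).

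Cox8a (chr19:7215153-7217616) had 252, 262 and 270.3 CPM in Grn+/+ hTDP-, 239, 264 and 285 in Grn+/+ hTDP+, 253, 266 and 296 in Grn+/- hTDP-, and 262, 267 and 305 in Grn+/- hTDP+. The 4 medians differed by less than the spread within a group, and the log2 change was 0.06 (SE 0.03, edgeR adjusted p = 0.926). Uqcrc2 (chr7:120635176-120659524), a core protein of complex III, had 149, 161 and 166 CPM in Grn+/+ hTDP-, 154, 157 and 160.1 in Grn+/+ hTDP+, 149, 155 and 159 in Grn+/- hTDP-, and 139, 156 and 166 in Grn+/- hTDP+. Its log2 change was -0.04 (SE 0.03) and that of Ndufs1 was -0.06 (SE 0.03), both with an edgeR adjusted p of 0.926.

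Split by transgene, the Grn change was above 0 for 12 of 13 mitochondrial members without the transgene (median 0.08) and for 11 of 13 with it (median 0.08). Without replicate 6 of Grn+/- hTDP+ the median with the transgene was 0.04, and with age as a factor the median without the transgene was 0.05. For the nuclear members the counts were 18 of 32 (median 0.00) and 19 of 32 (median 0.02). Without the transgene, no member was called by edgeR or DESeq2, against 0.011% and 0.0329% of all genes, and 3 members, mt-Nd1, mt-Nd3 and mt-Atp6, had an unadjusted p under 0.05, against 3.41%. With the transgene, no member was called by edgeR or DESeq2 either, against 0.00548% and 0.0274% of all genes. There, 3 members had an unadjusted p under 0.05, mt-Nd3 and mt-Nd5 higher and Sdha lower, against 3.37% of all genes.

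The mice with both changes were then compared with those with neither. The log2 change of this comparison is, for each gene, the sum of those for the average transgene and average Grn effects. It is thus larger than either wherever both lie above 0. The mitochondrial median, 0.17, was the largest of the comparisons made, and 12 of 13 members lay above 0. Of the nuclear members 25 of 32 did, with a median of 0.03, and the median over all genes was 0.01. Nuclear subunits outside the members are given below, with the other genes of the pathway. edgeR called no member (smallest adjusted p 0.327), against 0.0768% of all genes. DESeq2 called 2 members, mt-Nd1 and mt-Nd3, of the 42 to which it gave an adjusted p, against 1.67% of the 5156 genes to which it gave one. In the other comparisons it gave one to between 17523 and 18230 genes, so its calls here rest on a smaller set. DESeq2 was run only on the deposited counts of all 24 libraries. In edgeR, the smallest adjusted p among members was 0.122 without Grn+/- hTDP+ replicate 5 and 0.754 without replicate 6 of that group. These were the lowest and highest values with 1 library left out. At an unadjusted p under 0.05, edgeR gave 12 members, 9 mitochondrial and 3 nuclear, against 9.4% of all genes. Of the 12, 11 were higher and 1, Ndufs1, was lower. The 9 mitochondrial ones are not independent of one another, as said above. On the deposited counts, 0 of the 45 members had groups that did not overlap. The share of all genes with groups apart was not computed, which holds for every statement on overlap here.

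mt-Nd1 (chrM:2751-3707), the subunit that forms much of the ubiquinone chamber of complex I, had 3168, 3347 and 3418 CPM as lowest, median and highest in Grn+/+ hTDP- and 3370.5, 3757 and 4253 in Grn+/- hTDP+. The groups with 1 change lay between, at 3245, 3597 and 3877.5 in Grn+/+ hTDP+ and 3369, 3609 and 3778 in Grn+/- hTDP-. Of the 6 libraries with both changes, 5 lay above the highest library with neither. The log2 change was 0.18 (SE 0.05, 95% interval 0.08 to 0.28), with an adjusted p of 0.327 in edgeR and of 0.0440 in DESeq2, whose log2 change was also 0.18 (SE 0.05).

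mt-Nd3 had a log2 change of 0.31 (SE 0.09, 95% interval 0.13 to 0.49), with an adjusted p of 0.355 in edgeR and of 0.0451 in DESeq2, and 3 of the 6 libraries with both changes lay above the highest with neither. With the copy's reads added, its CPM was 539, 594 and 634 in Grn+/+ hTDP- and 637, 662 and 813 in Grn+/- hTDP+. The 2 groups then did not overlap, by the narrow margin of 634 against 637 CPM, after a choice made with the data seen. The share of all genes with groups apart was not computed. With the copy's reads added, the log2 change was 0.23 (SE 0.06, edgeR adjusted p = 0.314). The groups with 1 change, at 577, 661 and 731 in Grn+/+ hTDP+ and 577, 634 and 694 in Grn+/- hTDP-, overlapped both.

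The copies also bore on mt-Co2 and mt-Co3 of complex IV. On the deposited counts the log2 changes were 0.11 for mt-Co2, 0.08 for mt-Co3 and 0.19 for mt-Co1. With the copies' reads added, they were 0.20, 0.19 and 0.19, with edgeR adjusted p of 0.304, 0.314 and 0.359. For mt-Co2 and mt-Co3, 1 of the 6 libraries with both changes lay above the highest with neither on the deposited counts, and 5 of 6 with the copies. mt-Cytb had 0.19, mt-Nd6 0.20, mt-Nd4 0.17 and mt-Nd5 0.16, each with 4 of 6 libraries above the highest with neither. With copies added, 14 of the 45 members had an unadjusted p under 0.05 in edgeR, 11 of them mitochondrial, and none was called. The share of all genes in the fit with copies is not given here, and on the deposited counts that share was 9.4%. Of the nuclear members, Ndufs1 had a log2 change of -0.11 (95% interval -0.20 to -0.02, edgeR adjusted p = 0.456) and Ndufa2 one of 0.12 (SE 0.06, edgeR adjusted p = 0.504).

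**Figure D3:**
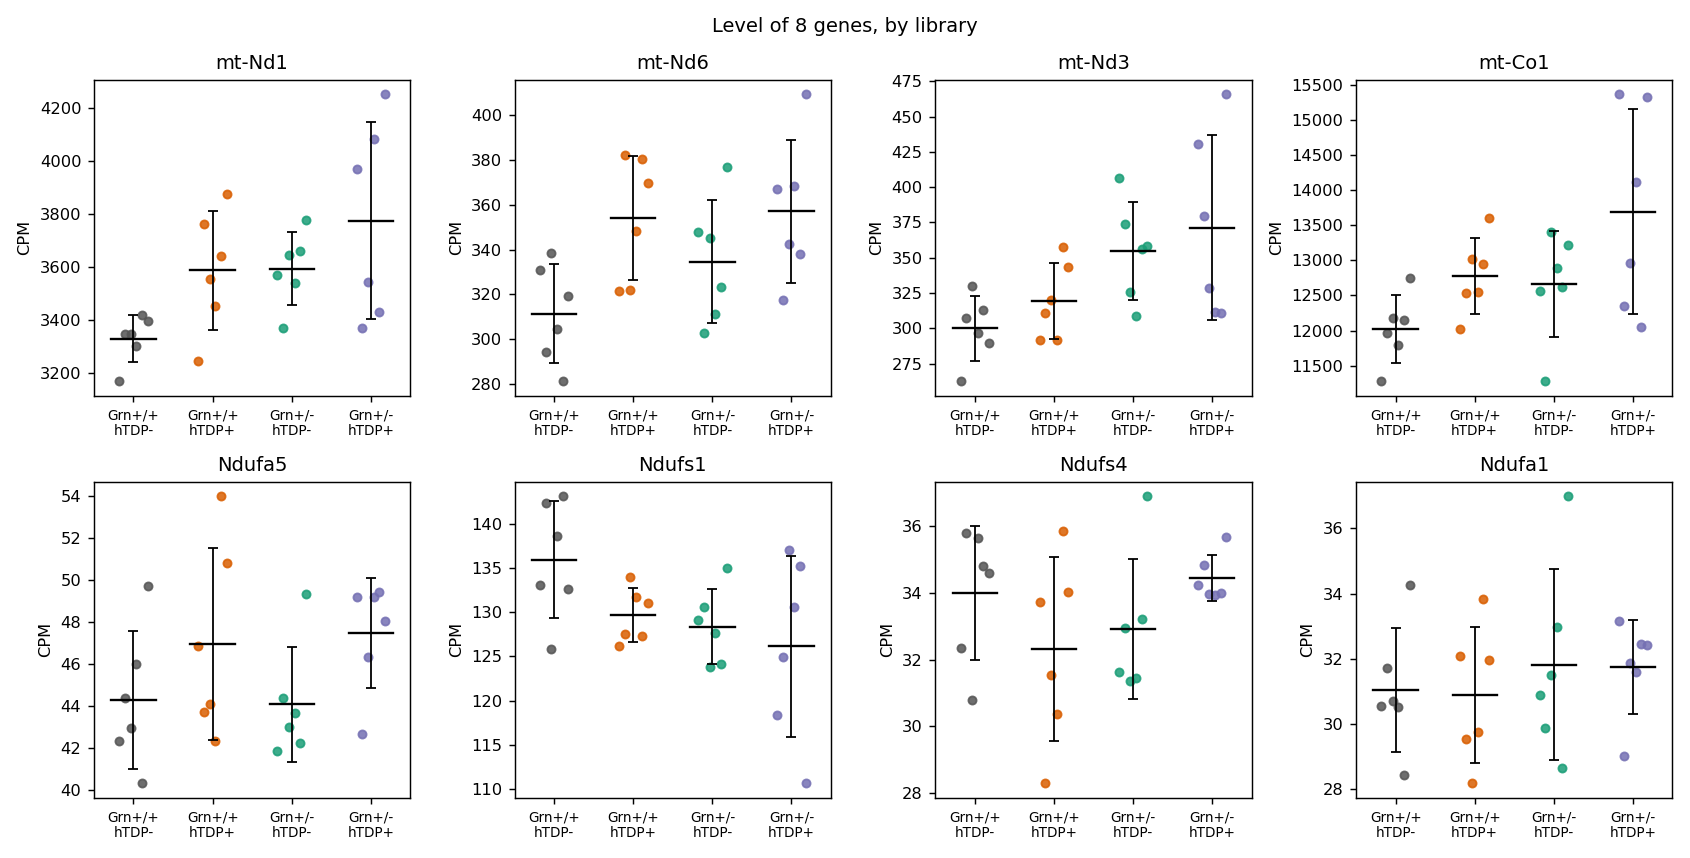
CPM of 8 members in each library by group, 1 point per library, with the group mean and SD; the value axes do not start at 0. For mt-Nd1, 5 of 6 libraries with both changes lie above the highest library with neither, while the nuclear members' groups overlap.

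The interaction asks whether the transgene's log2 change differed between the Grn genotypes. No difference was called for any member, and the directions were mixed: 6 of 13 mitochondrial members (median -0.01) and 19 of 32 nuclear members (median 0.01) were above 0. Without replicate 6 of Grn+/- hTDP+, 2 of 13 mitochondrial members were above 0. edgeR called 0% of all genes and DESeq2 0.0165%. No member had an unadjusted p under 0.05 in edgeR, against 2.38% of all genes, and no member was called by DESeq2. The interval for mt-Co1, from -0.14 to 0.19 around 0.03, shows the size of difference these libraries cannot resolve.

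Ndufs4 and Ndufs8 had the highest interaction values of the nuclear members. Ndufs4 (chr13:114287795-114388258) had 30.8, 34.7 and 35.8 CPM in Grn+/+ hTDP-, 28.3, 32.6 and 35.9 in Grn+/+ hTDP+, 31.4, 32.3 and 36.9 in Grn+/- hTDP-, and 33.9, 34.1 and 35.7 in Grn+/- hTDP+. The median was lower with the transgene in Grn+/+ mice and higher with it in Grn+/- mice, within overlapping ranges (log2 interaction 0.14, SE 0.07, 95% interval -0.02 to 0.29, edgeR adjusted p = 1.0). Ndufs8 (chr19:3908863-3912774), an iron-sulfur subunit of complex I, had 54.7, 57.5 and 59.3 CPM in Grn+/+ hTDP-, 56.5, 57.4 and 58.4 in Grn+/+ hTDP+, 52.9, 56.3 and 58.9 in Grn+/- hTDP-, and 58.1, 58.5 and 61.1 in Grn+/- hTDP+. Its interaction was 0.06 (SE 0.04, edgeR adjusted p = 1.0).

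Sdhc (-0.09, SE 0.07) and Ndufb2 (-0.08, SE 0.06) had the lowest values, both with an edgeR adjusted p of 1.0. That of Sdhc was -0.03 without replicate 2 of Grn+/+ hTDP+. Ndufb2 (chr6:39592574-39603382), a membrane-arm accessory subunit of complex I, had 45.01, 46.0 and 47.3 CPM in Grn+/+ hTDP-, 47.5, 49.1 and 50.3 in Grn+/+ hTDP+, 42.8, 48.2 and 51.4 in Grn+/- hTDP-, and 44.4, 47.3 and 52.1 in Grn+/- hTDP+. In Grn+/+ mice the 2 transgene groups did not overlap, and in Grn+/- mice they overlapped almost wholly. Ndufb2 was picked for its low interaction value, and the share of all genes whose groups stand apart this way was not computed. The largest mitochondrial values, 0.17 for mt-Co3 and -0.14 for mt-Atp6, came to -0.01 and -0.04 with the copies' reads added.

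**Figure D4:**
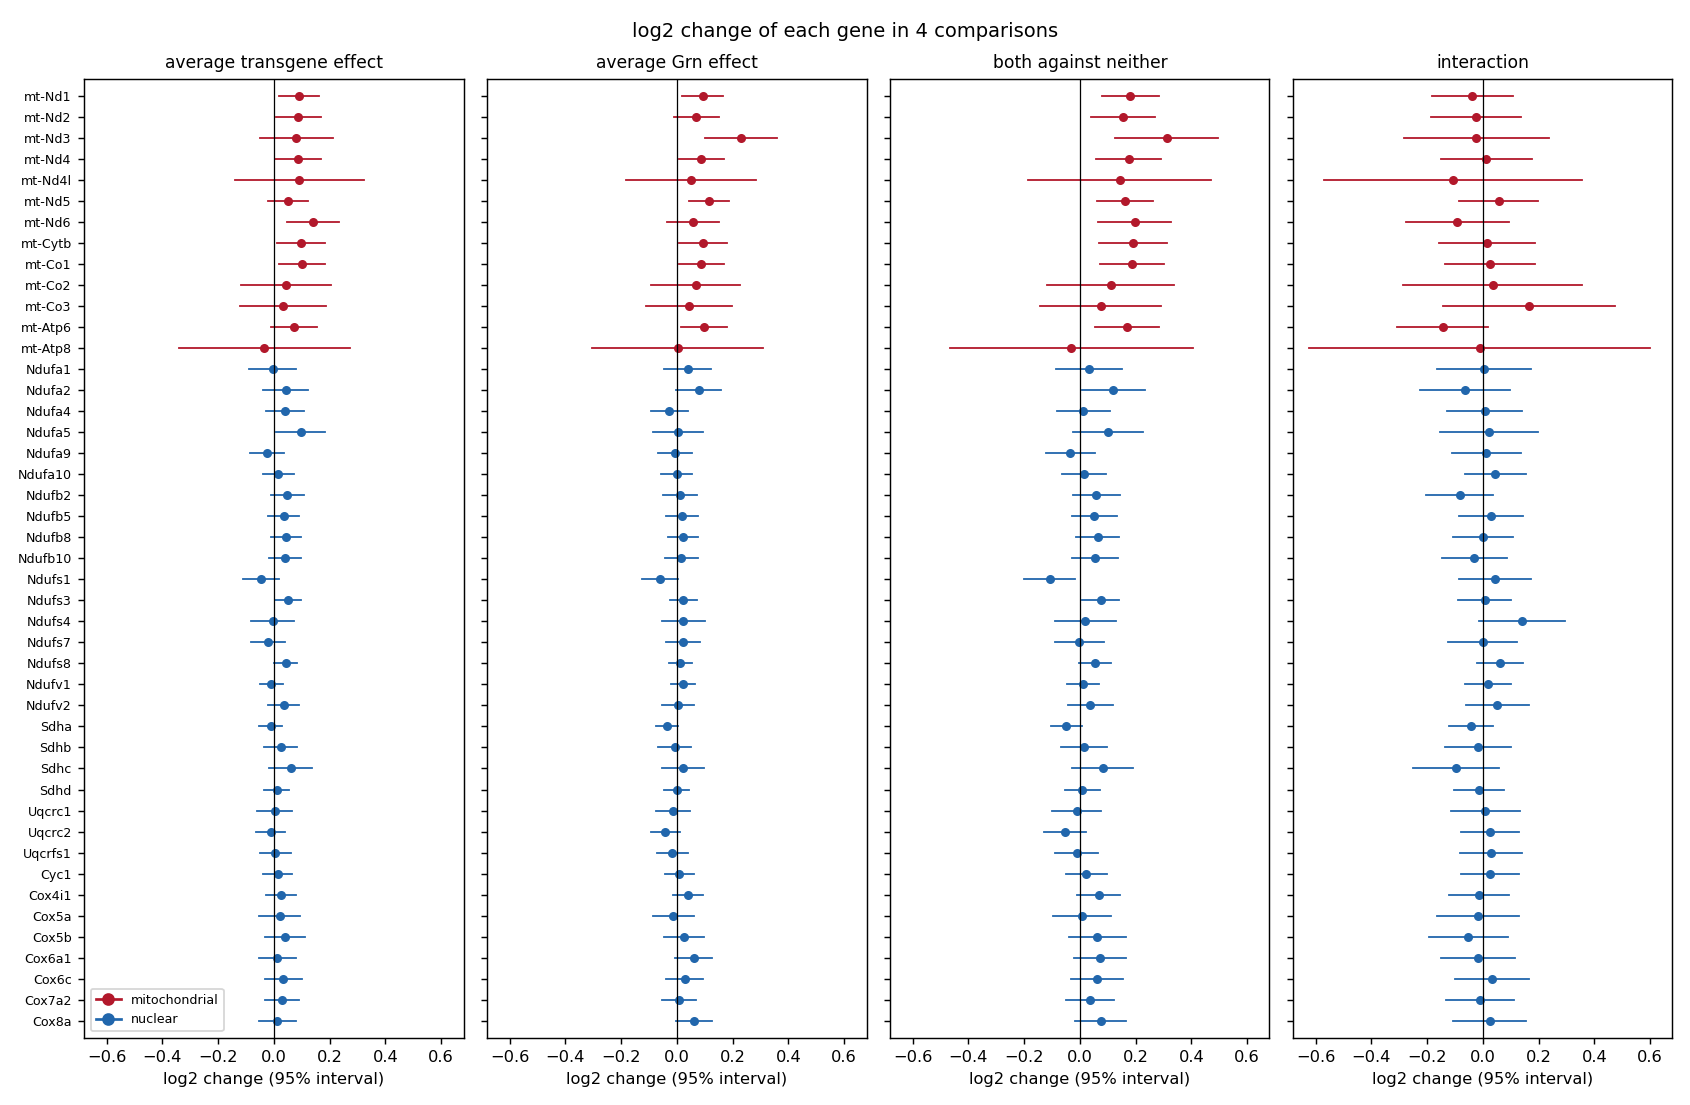
Log2 change and 95% interval of each of the 45 members for the transgene on average, Grn on average, both changes against neither and the interaction. The mitochondrial members lie mostly above 0 in the first 3 panels, with medians of 0.09, 0.09 and 0.17, and on both sides of 0 for the interaction, where every interval includes 0.

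Between the sexes, 4 of 13 mitochondrial and 19 of 32 nuclear members had a log2 change, male against female, above 0. No member was called by edgeR (smallest adjusted p 0.658) or by DESeq2 (0.382), against 0.0713% and 0.123% of all genes. The 2 with an unadjusted p under 0.05 were mt-Nd2 (-0.08) and Cox4i1 (0.08), against 5.99% of all genes. Ndufa1 (chrX:37187588-37191163), the 1 X-linked member and an accessory subunit of complex I, had 28.4, 30.6 and 34.3 CPM in Grn+/+ hTDP-, 28.2, 30.9 and 33.8 in Grn+/+ hTDP+, 28.6, 31.2 and 37.0 in Grn+/- hTDP-, and 29.0, 32.2 and 33.1 in Grn+/- hTDP+. Its groups overlapped, and its log2 change between the sexes was 0.02 (SE 0.04, edgeR adjusted p = 0.955).

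Set against each other as sums, the 2 genomes gave a ratio of mitochondrial to nuclear CPM that was lowest with neither change and highest with both. No test is given for it, since it is a score over chosen members. The ratio was 8.24 ± 0.331 in Grn+/+ hTDP- (lowest 7.89, median 8.20, highest 8.75), 8.65 ± 0.377 in Grn+/+ hTDP+ (8.14, 8.64 and 9.11), 8.68 ± 0.382 in Grn+/- hTDP- (7.97, 8.74 and 9.05) and 9.16 ± 0.857 in Grn+/- hTDP+ (8.17, 9.11 and 10.5), each as mean ± SD with n = 6. Of the 6 libraries with both changes, 3 lay above the highest with neither, and all groups overlapped.

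The ratio moved with its upper term. The mitochondrial sum was 32587 ± 1106, 34531 ± 1354, 34547 ± 1560 and 36819 ± 3645 CPM in the same order of groups. The nuclear sum was 3957 ± 100.9, 3994 ± 115, 3982 ± 114 and 4019 ± 107 CPM, which differ by less than their SD. The 2 mitochondrial rRNAs, which are not members, followed the same order as the mitochondrial sum at 4280 ± 280, 4593 ± 252, 4673 ± 668 and 4899 ± 773 CPM.

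On the log2 scale, the difference in the ratio was 0.07 for the transgene on average, 0.08 for Grn on average, and 0.15 for both against neither, which is 1.11-fold, beside a pooled within-group SD of 0.09. The interaction was 0.00. Replicate 6 of Grn+/- hTDP+ was the highest of all at 10.5 and replicate 2 of Grn+/+ hTDP- the lowest at 7.89. Without that highest library, the difference for both against neither was 0.11 and that for the transgene 0.05. With the copies' reads added the ratio was 10.8 ± 0.376, 11.5 ± 0.555, 11.4 ± 0.534 and 12.1 ± 1.17 in the same order of groups, and the difference for both against neither was 0.16. By complex, with the copies' reads added, that difference was 0.15 for complex I, 0.20 for complex III and 0.13 for complex IV.

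**Figure D5:**
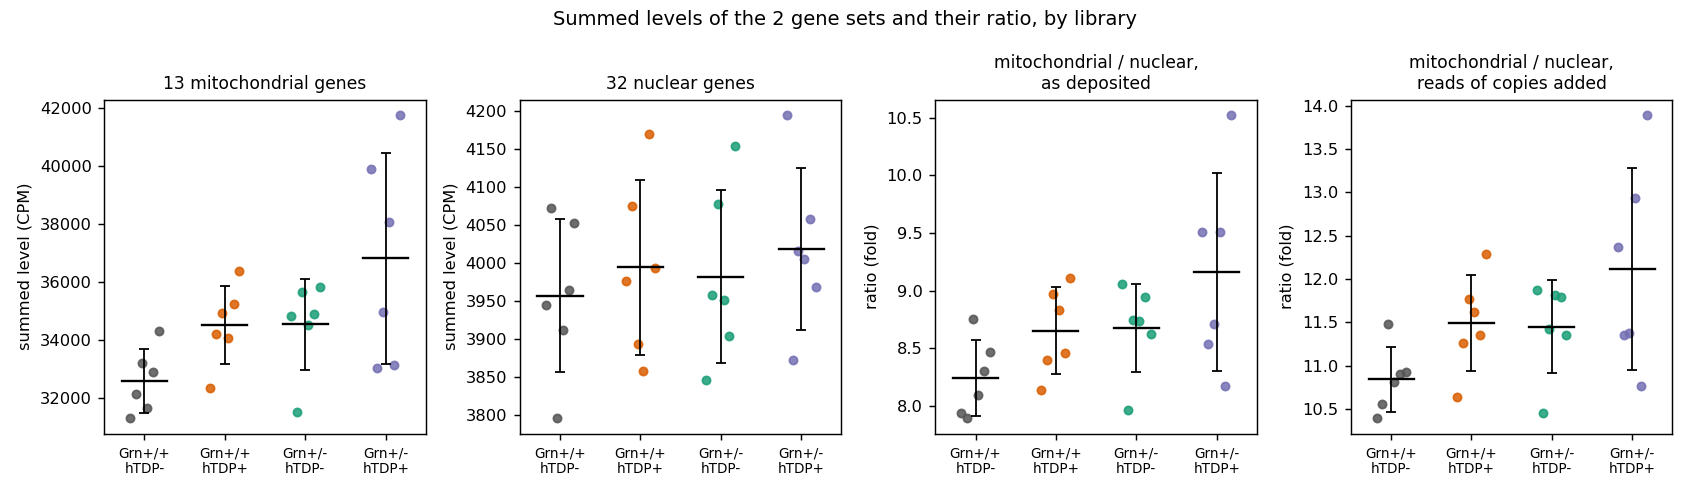
Summed CPM of the 13 mitochondrial members, summed CPM of the 32 nuclear members, their ratio, and the ratio with the copies' reads added, 1 point per library by group, with mean and SD; the value axes do not start at 0. The ratio's group means go from 8.24 with neither change to 9.16 with both, the nuclear sum has group means from 3957 to 4019 CPM, and the group with both changes has the widest spread.

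Ages were not the same in all groups, so the ratio was also read within an age. Among mice of 10.07 months it was 8.32 in Grn+/+ hTDP- (n = 2), 8.503 in Grn+/+ hTDP+ (n = 3) and 9.07 in Grn+/- hTDP+ (n = 4). Among mice of 9.44 months it was 8.29 in Grn+/+ hTDP- (n = 3), 8.80 in Grn+/+ hTDP+ (n = 3), 8.75 in the single Grn+/- hTDP- mouse, and 9.35 in Grn+/- hTDP+ (n = 2, 8.17 and 10.5). Within each age the mean was lowest with neither change and highest with both, and at 9.44 months the groups with 1 change stood in the opposite order to that over all mice.

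Cell type markers spread widely beside the mitochondrial values, and the ranges of the groups overlapped. Oligodendrocyte markers, summed, ran from 1048 to 2693 TPM in Grn+/+ hTDP-, 1754 to 3694 in Grn+/+ hTDP+, 1127 to 5081 in Grn+/- hTDP- and 997 to 2777 in Grn+/- hTDP+. Blood cell markers ran from 61.8 to 183, 105 to 296, 65.0 to 859 and 76.0 to 444 TPM in the same order, and their mean log2 level, centred on all libraries, was -0.57 ± 0.63, -0.09 ± 0.62, 0.06 ± 1.51 and 0.60 ± 1.08 (mean ± SD), the same order of groups as the ratio. The centred means of mural and meningeal markers were -0.23 ± 0.32, 0.06 ± 0.39, 0.05 ± 0.38 and 0.12 ± 0.36, and those of endothelial markers -0.06 ± 0.10, 0.01 ± 0.14, 0.00 ± 0.12 and 0.06 ± 0.08, both lowest with neither change and highest with both. Excitatory neuron markers ran from 4937 to 5966, 4606 to 5520, 5079 to 5735 and 4482 to 5586 TPM, with centred means of 0.04, -0.04, 0.01 and -0.01. For the other lists the centred means, in the same order, were highest in a group with 1 change. They were 0.01, -0.01, 0.02 and -0.02 for inhibitory neurons and -0.07, -0.03, 0.08 and 0.02 for astrocytes. Oligodendrocyte precursors had -0.09, 0.03, 0.07 and -0.003, and microglia -0.04, -0.07, 0.06 and 0.05. Choroid plexus and ependyma had -0.35, 0.44, -0.02 and -0.07, and striatal neurons -0.10, 0.07, -0.02 and 0.05. Oligodendrocytes had -0.28, 0.42, -0.01 and -0.13. No marker of these lists was at 0 in all libraries. The part of these markers in the mitochondrial values was not tested.

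The other genes of the pathway were read from lists of 175 tested genes, and none was called by edgeR in any of the 9 comparisons. The lists include the 2 mitochondrial rRNAs and the 5 near-identical copies of members on chromosome 1, which are not separate pathway genes. At an unadjusted p under 0.05 the lists gave 25 genes for the average transgene effect and for both against neither, 10 for the average Grn effect and 1 for the interaction. The shares over all genes were 7.86%, 9.4%, 4.93% and 2.38%, in the order average transgene effect, both against neither, Grn and interaction. Of the 25 for the average transgene effect, 4 were copies. Of the 25 for both against neither, 2 were copies and 2 were rRNAs, and of the 10 for Grn, 1 was a copy. For the average transgene effect, the other nuclear subunits of complex I lay above 0 in 19 of 20 (median 0.06), with Ndufa3 highest at 0.10. Complex III gave 5 of 5 (median 0.05), from Uqcr10 at 0.02 to Uqcrq at 0.06, and complex IV 5 of 8 (median 0.02), from Cox7a1 at -0.25 to Cox7c at 0.07. Nuclear subunits of ATP synthase gave 11 of 14 (median 0.05), from Atp5a1 at -0.04 to Atp5k at 0.12, and cytochrome c itself, Cycs, had 0.01. For both against neither, complex I gave 20 of 20 (median 0.08) and complex III 5 of 5 (median 0.04). There, complex IV gave 6 of 8 (median 0.06), ATP synthase 12 of 14 (median 0.05), and Cycs had -0.02. With these nuclear subunits added to the lower term, the log2 difference in the ratio for both against neither was 0.15.

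Genes that build or regulate the chain showed no common direction. Assembly factors lay above 0 in 28 of 42 (median 0.02), from Lyrm7 at -0.05 to Nubpl at 0.17. Genes for upkeep and transcription of mitochondrial DNA did so in 11 of 17 (median 0.01), from Mterf2 at -0.02 to Polg2, the accessory subunit of the mitochondrial DNA polymerase, at 0.23, and Tfam, which packages that DNA, had 0.00. Genes that process or degrade mitochondrial RNA gave 13 of 20 (median 0.01), from Ptcd1 at -0.06 to Hsd17b10 at 0.08. Regulators of respiratory genes gave 2 of 11 (median -0.06), from the coactivator Ppargc1b at -0.23 to the transcription factor Nrf1 at 0.08. The citric acid cycle gave 3 of 15 (median -0.01), from Ogdh at -0.07 to Idh3b at 0.03, and the outer membrane and import list 10 of 15 (median 0.02), from Timm17a at -0.07 to Timm44 at 0.09. The rRNAs mt-Rnr1 and mt-Rnr2 had 0.07 and 0.10, and the 5 copies on chromosome 1 all lay above 0, from Gm10925 at 0.10 to Gm29216 at 0.38.

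The interaction values of these lists reached from Cox7a1 at -0.70 to Cox4i2 at 0.24 in complex IV, from Nubpl at -0.25 to Cox16 at 0.15 among the assembly factors, and from Mgme1 at -0.25 to Mterf2 at 0.18 among genes of mitochondrial DNA. They ran from Ndufs5 at -0.14 to Ndufv3 at 0.04 in complex I, from Uqcr11 at -0.04 to Uqcrb at 0.01 in complex III and from Atp5k at -0.17 to Atp5g3 at 0.05 in ATP synthase. Among the RNA processing genes they ran from Fastkd1 at -0.13 to Trmt10c at 0.17, and among the regulators from Esrra at -0.04 to Pprc1 at 0.16. In the citric acid cycle they ran from Pdhb at -0.07 to Suclg2 at 0.09, in the import list from Vdac3 at -0.09 to Tomm70a at 0.07, and among the copies from Gm29216 at -0.10 to Gm10925 at 0.02. Cycs had 0.04, mt-Rnr1 -0.04 and mt-Rnr2 -0.02. Every one of these had an edgeR adjusted p of 1.0.

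The promoters of the nuclear members were searched for motifs of factors known to act on respiratory genes. RefSeq windows of GRCm38.p6, from 250 bases before to 50 bases after the gene's start, matched 25 of the 32, and both strands were searched. The NRF1 core GCATGCGC was present in 3 (12%: Cox6a1, Sdhb and Uqcrc1), against 2.80% of all 27025 promoters and 4.75% of those of 12763 tested genes. The ETS core CCGGAAGT was present in 2 (8%: Cox8a and Ndufs3), against 4% and 7.10%. The YY1 core AAGATGGC was present in 4 (16%: Ndufa9, Ndufb8, Ndufs4 and Ndufs7), against 2.88% and 4.07%, and TATAAA in 1 (4%: Ndufs7), against 14.2% and 7.59%. The median GC content was 60% in the members' windows and 60.3% in those of tested genes. These matches are a description of letters in the windows.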

How the data were processed

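RNA-seq libraries of 24 mice (4 groups of 6) were used as the authors deposited them, as transcript tables of Salmon with estimated counts, TPM and effective lengths per the file headers. STAR, Salmon, SAMtools and DESeq2 are named in the submitters' processing notes, without versions. The build, the annotation and the strand setting were not given in the sources used here. Of 149444 transcripts, 138032 (92.4%) were matched to GENCODE M21 (GRCm38). Their estimated counts were summed to 52352 genes and rounded. Unmatched transcripts held 1.17% to 1.66% of reads and, with human TARDBP, stayed out of the fits.

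edgeR 4.0.16 in R 4.3.3 fitted group and sex over all 24 libraries (filterByExpr, TMM scaling, quasi-likelihood test) and gave 9 comparisons, with Benjamini-Hochberg adjustment over 18239 genes and a call at an adjusted p under 0.05. CPM values use TMM-scaled library sizes, and TPM values are the deposited ones summed per gene. The fit was tested on simulated data. DESeq2 1.42.0, other scalings, age terms and leaving out each library were alternatives. Copies were found with BLAST+ 2.17.0 (at least 95% identity over 100 bases, and 100 reads on average).

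The members and lists were chosen with earlier results of these data known. Given as the lowest, median and highest library of each group were members called by edgeR (none), mt-Co1, mt-Nd6, mt-Cytb, mt-Atp6, mt-Nd4, mt-Nd3 and Ndufa1. So were the 2 nuclear members of highest and the 2 of lowest log2 change for the transgene on average, Grn on average and the interaction. mt-Nd1 was added after its values were seen. Of each pathway list the highest and lowest gene was named, except for 1 value not reported here. Libraries are separate mice, so p-values measure the spread between mice. Tfam was also named after its value was seen.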

Additional observations from a re-analysis of the deposited data

Results flagged for a closer look

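Over 184 tests, each of 6 libraries of a group, for the 45 members and the ratio, 12 groups held a library whose gap to its neighbour was large for the group's range (Dixon's critical value 0.625), in 11 members. Chance flags about 1 in 20 such groups. mt-Nd4 was low in replicate 1 of Grn+/+ hTDP- (3912 CPM, next 4170.4) and in replicate 2 of Grn+/- hTDP- (3968 CPM, next 4442). mt-Atp6 was low in replicate 6 of Grn+/+ hTDP+ (1575 CPM, next 1823), and mt-Atp8 was high in replicate 6 of Grn+/+ hTDP- (12.6 CPM, next 7.66). Replicate 6 of Grn+/- hTDP- was high in 3 nuclear members, Ndufa5 (49.3 CPM, next 44.4), Ndufs4 (36.9 CPM, next 33.2) and Cox5a (85.7 CPM, next 73.6). Ndufa1 was low in replicate 2 of Grn+/- hTDP+ (29.0 CPM, next 31.6), Ndufv2 was low in replicate 3 of Grn+/+ hTDP- (80.2 CPM, next 87.6) and Sdhc was low in replicate 6 of Grn+/+ hTDP- (53.7 CPM, next 56.8). Sdhb was high in replicate 2 of Grn+/+ hTDP+ (107 CPM, next 93.1), the library with fewer detected transcripts, and Cyc1 was high in replicate 5 of Grn+/+ hTDP- (156 CPM, next 145).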

How the results depend on the processing

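No paired analysis was possible because the labels give no replicate numbers that groups share and tie no mouse to a litter. Age, which mice of several groups share, was fitted as a factor. In edgeR no member was called under any alternative, and the cause of the differences between settings was not tested. DESeq2 called 2 members, mt-Nd1 and mt-Nd3, for both against neither, and called 61 genes for the average transgene effect (edgeR 20), 27 for the transgene in Grn+/+ (6), 9 in Grn+/- (4), 9 for the average Grn effect (4), 6 without the transgene (2), 5 with it (1), 86 for both against neither (14), 3 for the interaction (0) and 22 for sex (13). With age as a factor, edgeR called 2 genes for the average transgene effect, 0 for the transgene in Grn+/-, 1 for the average Grn effect, 0 for Grn without and 0 with the transgene, and 3 for both against neither. The transgene in Grn+/- called 2 genes without the count filter, with length-scaled TPM and with linear age. Grn with the transgene called 0 without the filter and with length-scaled TPM, and both against neither 9 and 7. Grn without the transgene called 0 with linear age and with upper-quartile scaling. Leaving out 1 library gave 14 to 22 genes for the average transgene effect, 4 to 7 and 2 to 4 for the transgene in Grn+/+ and Grn+/-, 4 to 6 for the average Grn effect, 0 to 3 without and 1 to 2 with the transgene, 4 to 16 for both against neither, 0 to 0 for the interaction and 12 to 16 for sex. For both against neither, 4 was reached without Grn+/- hTDP+ replicate 4 or Grn+/+ hTDP- replicate 5. The mitochondrial median for both against neither stayed between 0.14 and 0.19 over the alternatives, and that for the transgene between 0.07 and 0.10, while those within 1 genotype ranged more widely, from 0.04 to 0.12 for the transgene in Grn+/- and from 0.04 to 0.11 for Grn with the transgene. Without replicate 2 of Grn+/+ hTDP+, the library that stood apart, they were 0.17 and 0.09. With age as a factor, 10 of 13 mitochondrial members were above 0 for Grn. The interaction of mt-Nd3 turned to 0.0154 with length-scaled TPM. Leaving out 1 library, interactions ran from -0.0134 to 0.0585 for mt-Co1, -0.0182 to 0.0478 for mt-Cytb, -0.0942 to 0.0325 for mt-Nd3 and -0.0249 to 0.0493 for mt-Nd4. The ratio's difference for both against neither ran from 0.11 to 0.18 when 1 library was left out, and its interaction from -0.04 to 0.04. An alternative that takes the copies from their annotated names was not run, since the annotation does not name what they copy, and copies found by sequence took its place.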
